A study of Mus musculus with 3 samples.

Results

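The genes described here build and run the lysosome, acidify it, and feed it through autophagy: 38 mouse genes taken by gene symbol from a list that was drawn up with earlier results of these arrays known. Of these, 36 had a probe set annotated to them alone, out of 18820 genes on the arrays with such a probe set. Ctsb and Becn1 were not analysed here, because each probe set that names them also names another gene. Atp6v0d2 and Rragd fell below the filter on low values, a mean log2 value of 4.14 over the arrays, so 34 of the 38 enter the counts below, beside 9410 genes past the filter in all.

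Cultures of the mouse macrophage line RAW264.7 received 500 µM palmitate, elaidate or oleate for 6 hours, each coupled to serum albumin stripped of fatty acid, with 2 molecules of fatty acid to 1 of albumin. Palmitate is a saturated fatty acid, oleate a longer cis monounsaturated one, and elaidate the trans isomer of oleate, so dose and time were matched over the 3 pairs compared. Each fatty acid has 1 array of total RNA, and no untreated or albumin-only array was analysed here. Every difference is therefore between 1 array and another, has no replicate error and no p-value, and is not a response relative to cells without fatty acid. All groups share the cell line, its culture medium and the ethanol, potassium hydroxide and albumin vehicle of the fatty acids.

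Values are log2 expression levels, 1 unit being a doubling, and a gene is counted as higher or lower when a pair of arrays differs at least 1.5-fold, a log2 difference of 0.58, or, where so stated, by any amount. Levels are read within a gene, because different probe sets are not on 1 scale. The medians of all 35556 probe sets lay between 3.57 and 3.61 on the 3 arrays. All 8 measured macrophage markers passed the filter, with median levels of 10.4 on the palmitate, 10.7 on the elaidate and 10.8 on the oleate array. No lymphocyte marker of 4 passed it, and of the fibroblast, epithelial and adipocyte or hepatocyte markers 1 each did. Macrophage markers were lower by any amount with palmitate than with oleate for 7 of 8 genes, beside 36.8% of all genes past the filter. Their median difference was -0.34. With elaidate, 6 of 8 were lower than with oleate and 0 higher, beside 2290 of 9410 genes lower, with a median of -0.05. The part of these shifts in the results below was not tested. In RNA of whole cultures, fewer cells of a kind and less RNA per cell cannot be told apart.

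Lysosomes degrade material from endocytosis, phagocytosis and autophagy with acid hydrolases, and a vacuolar proton pump, the V-ATPase, keeps them acidic. Transcription factors of the MiT/TFE family (TFEB, TFE3, MITF) bind E-box elements near many lysosomal and autophagy genes. Folliculin with its FNIP partner acts on the RagC and RagD GTPases at the lysosome surface, through which mTORC1 holds these factors in the cytoplasm when nutrients are plentiful. Macrophages are rich in lysosomes and use their acid lipase to free cholesterol and fatty acids from ingested lipoproteins.

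The listed degrading enzymes were nearly level on the 3 arrays. Most of the other members stayed within 1.5-fold, though several of them differed more than any enzyme did. The members that differed by 1.5-fold between palmitate and oleate were regulators of the pathway, a chloride transporter and an autophagy gene. No difference between these classes was tested. Of the 34 genes, 4 were at least 1.5-fold higher with palmitate than with oleate, 11.8%, where 4.57% of all genes past the filter were. They were Fnip1, Gabarapl1, Clcn7 and Mitf. The single member at least 1.5-fold lower was Tfeb, 2.94% of the members beside 4.73% of all genes. Palmitate against elaidate gave 2 members higher, Fnip1 and Mitf, or 5.88% beside 3.18% of all genes, and 1 lower, again Tfeb, beside 4.43% of all genes. Elaidate against oleate gave 0 members past 1.5-fold in either direction, where 0.723% of all genes were higher and 0.0638% lower. At a limit of 2-fold, 1 member was higher with palmitate than with oleate, beside 1.65% of all genes, and 0 were lower, beside 1.22%. No member was 2-fold different for palmitate minus elaidate, where 0.978% of all genes were higher and 0.871% lower. The median difference over the 34 members was 0 in each of the 3 comparisons, as it was over all genes.

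**Figure D1:**
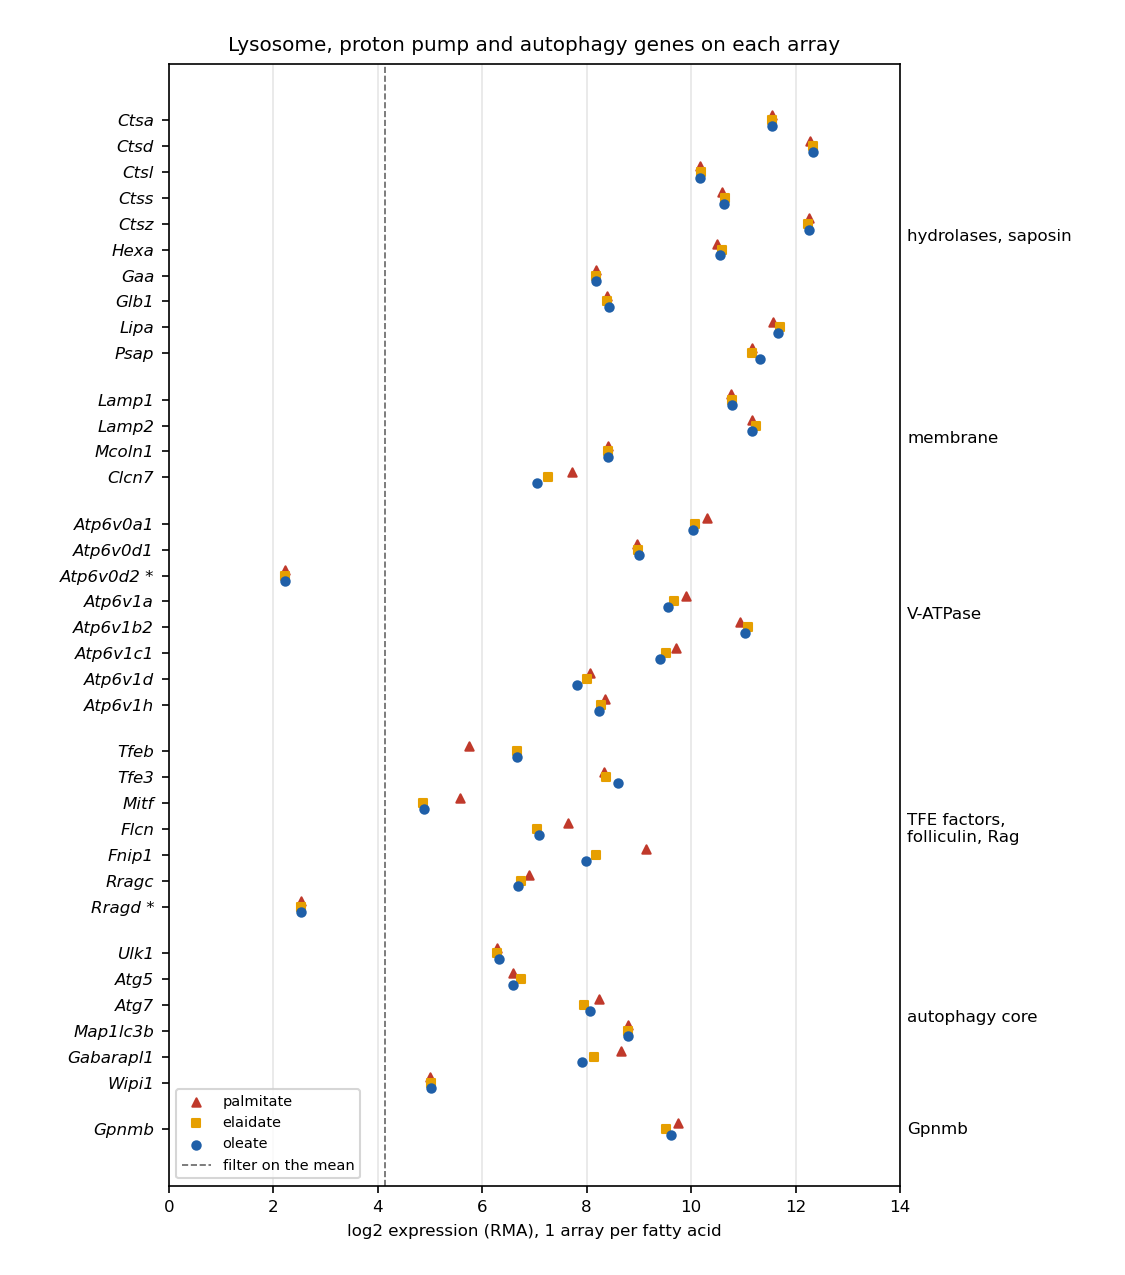
Log2 expression of the 36 measured members on the palmitate (triangles), elaidate (squares) and oleate (circles) array, 1 point per array, with the filter on the mean as a dashed line and the 2 members below it starred. The 3 points of most hydrolases lie on each other, while the palmitate point stands to the right for Fnip1, Mitf, Flcn, Clcn7 and Gabarapl1 and to the left for Tfeb; levels are to be compared within a row only.

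Among the enzymes, the 10 measured genes spanned log2 differences of -0.16 to 0 for palmitate minus oleate, and none exceeded 0.16 in size in any comparison. On the palmitate array 6 of them were lower by any amount than on the oleate array and 4 were equal, with a median difference of -0.04, where 36.8% of all genes were lower by any amount and 32.3% equal. The member furthest from 0 was Psap, the precursor of the saposins that help enzymes reach sphingolipids, with 11.16 on the palmitate, 11.16 on the elaidate and 11.32 on the oleate array. Lipa, the acid lipase that hydrolyses cholesteryl esters and triglycerides, had 11.57 on the palmitate, 11.70 on the elaidate and 11.66 on the oleate array. The palmitate array was the lowest for Lipa, and the palmitate and elaidate arrays lay together below oleate for Psap.

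The proteases were as level. Ctsd, an aspartic protease, had 12.27 on the palmitate, 12.33 on the elaidate and 12.34 on the oleate array, in a table whose highest values lay between 13.60 and 13.67. The cysteine proteases Ctsl, Ctss and Ctsz differed by at most 0.05 in size between any pair of arrays. Ctsa, the carboxypeptidase that protects other lysosomal enzymes, and Gaa, the acid glucosidase that degrades glycogen, were equal on all 3 arrays to within 1e-06. Equal values of this kind held for 4 of the 34 members and for 27.5% of all genes past the filter. The glycosidases Hexa and Glb1, which act on gangliosides, stayed within 0.09 in size.

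The membrane proteins divided into 3 nearly level genes and 1 that differed. Lamp1 and Lamp2, the abundant glycoproteins of the lysosome membrane, stayed within 0.08 in size in every comparison. Lamp1 had 10.77 on the palmitate, 10.79 on the elaidate and 10.79 on the oleate array. Mcoln1, a calcium-releasing cation channel of the lysosome, had 8.41 on each array. Clcn7, a chloride-proton exchanger that supports acidification, had 7.72 on the palmitate, 7.27 on the elaidate and 7.05 on the oleate array. The palmitate array was highest and oleate lowest, with palmitate minus oleate at 0.68, or 1.60-fold. Palmitate minus elaidate stood at 0.46 and elaidate minus oleate at 0.22 for Clcn7. Clcn7 had a higher palmitate minus oleate difference than 96.2% of all genes past the filter.

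The V-ATPase hydrolyses ATP in its V1 ring and passes protons through its V0 ring. Of the 7 listed subunit genes past the filter, 5 were higher and 2 lower by any amount with palmitate than with oleate, 71.4% higher beside 30.9% of all genes higher by any amount. Their median difference was 0.25 and their mean 0.16, beside a median of 0 over all genes and over the 11 other subunit genes past the filter, and no listed subunit reached 1.5-fold. The highest was Atp6v1a, which carries the catalytic sites, with 9.90 on the palmitate, 9.66 on the elaidate and 9.57 on the oleate array, or 1.26-fold for palmitate over oleate. Atp6v1c1, a subunit that links V1 to V0, had 9.72 on the palmitate, 9.53 on the elaidate and 9.40 on the oleate array. Both had palmitate highest and elaidate in the middle.

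Atp6v0a1, the large membrane subunit of V0, stood at 10.31 on the palmitate, 10.08 on the elaidate and 10.03 on the oleate array. Atp6v1d, of the central stalk, had 8.06 on the palmitate, 8.00 on the elaidate and 7.81 on the oleate array, so that oleate alone lay apart. Atp6v1h, a regulatory subunit, differed by 0.11 for palmitate minus oleate. Atp6v1b2, which forms the V1 ring with Atp6v1a, ran the other way, with 10.93 on the palmitate, 11.08 on the elaidate and 11.04 on the oleate array. Atp6v0d1, the V0 subunit that couples the rings, had 8.97 on the palmitate, 8.99 on the elaidate and 9.01 on the oleate array, with palmitate minus oleate at -0.04. Its paralogue Atp6v0d2, which marks osteoclasts and multinucleated macrophages, was below the filter at 2.22 on each array, and 3 of 8 osteoclast markers passed it. Mmp9 had 7.96 on the palmitate, 8.31 on the elaidate and 8.59 on the oleate array. Nfatc1 had 6.13 on the palmitate, 6.22 on the elaidate and 6.34 on the oleate array, and Dcstamp had 5.70 on the palmitate, 5.74 on the elaidate and 5.21 on the oleate array. The markers Acp5, Ctsk, Calcr, Oscar and Ocstamp were below the filter.

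Promoter windows of the members were read for the E-box letters that MiT/TFE factors bind, since 5 of these genes differed by 1.5-fold while others of the same kind were level. RefSeq windows of 300 bases on GRCm38.p6, 250 before to 50 after a gene's start, were found for 32 of the 36 measured members. The 6-letter E-box CACGTG was in a window of 14 of them, 43.8%, beside 8.09% of the 27025 genes in the table and 12.5% of the 7666 genes past the filter with a window. TCACGTGA, the 8-letter form at the centre of the CLEAR element of lysosomal genes, contains the first motif and was found for 6 members, 18.8%, beside 1.12% of genes in the table and 2.45% of the genes past the filter with a window. Both motifs read the same on either strand. The element is known from lysosomal genes, and the list holds such genes. The high shares therefore describe how the list was made and are not a result of these arrays. A match describes letters and is not evidence of binding.

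The windows printed here show the motif in members that differed and in members that did not, written 5′ to 3′ on the gene's strand, with the matched E-boxes in capitals. They are Clcn7 at chr17:25133141-25133440 on the plus strand, Atp6v1a at chr16:44139210-44139509 on the minus strand, Mcoln1 at chr8:3500269-3500568 on the plus strand, Ctsd at chr7:142387778-142388077 on the minus strand and Fnip1 at chr11:54437929-54438228 on the plus strand.
Clcn7: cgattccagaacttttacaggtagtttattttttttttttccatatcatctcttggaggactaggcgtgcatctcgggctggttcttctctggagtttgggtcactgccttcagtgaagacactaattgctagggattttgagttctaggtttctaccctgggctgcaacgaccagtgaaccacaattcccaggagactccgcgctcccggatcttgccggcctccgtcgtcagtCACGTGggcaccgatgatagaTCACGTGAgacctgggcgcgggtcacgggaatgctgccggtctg
Atp6v1a: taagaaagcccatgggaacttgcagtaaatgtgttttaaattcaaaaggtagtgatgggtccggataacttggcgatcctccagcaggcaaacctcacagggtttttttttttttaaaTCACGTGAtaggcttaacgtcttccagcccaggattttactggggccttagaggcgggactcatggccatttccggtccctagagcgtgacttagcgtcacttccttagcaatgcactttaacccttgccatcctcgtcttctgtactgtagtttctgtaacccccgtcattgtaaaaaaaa
Mcoln1: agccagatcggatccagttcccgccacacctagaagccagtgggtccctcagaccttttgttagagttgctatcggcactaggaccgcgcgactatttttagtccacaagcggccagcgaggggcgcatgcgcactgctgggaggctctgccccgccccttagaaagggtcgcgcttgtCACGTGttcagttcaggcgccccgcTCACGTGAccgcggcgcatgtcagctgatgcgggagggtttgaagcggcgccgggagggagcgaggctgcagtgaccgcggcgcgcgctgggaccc
Ctsd: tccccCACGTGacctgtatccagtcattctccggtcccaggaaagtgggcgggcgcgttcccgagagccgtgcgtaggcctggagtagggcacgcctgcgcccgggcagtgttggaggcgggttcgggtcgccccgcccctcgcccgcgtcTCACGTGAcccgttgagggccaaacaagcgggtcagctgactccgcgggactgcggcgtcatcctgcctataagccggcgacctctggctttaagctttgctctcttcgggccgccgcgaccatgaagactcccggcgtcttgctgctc
Fnip1: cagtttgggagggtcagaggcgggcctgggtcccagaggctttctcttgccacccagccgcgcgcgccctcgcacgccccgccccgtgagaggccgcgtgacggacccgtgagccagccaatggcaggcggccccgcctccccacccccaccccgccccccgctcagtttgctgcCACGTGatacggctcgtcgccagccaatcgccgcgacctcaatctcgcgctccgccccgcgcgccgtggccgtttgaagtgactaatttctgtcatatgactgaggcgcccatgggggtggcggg

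The 8-letter motif came with differences of several sizes. In Clcn7 the core CACGTG of the 8-letter match began 7 bases after the start, with a second core 15 bases before it, and in Atp6v1a it began 131 bases before the start. These are the genes at 0.68 and 0.33 for palmitate minus oleate. Mcoln1 holds the core 71 and 45 bases before its start and Ctsd 245 and 98 bases before, and these genes stood at 0 and -0.06. The other members with the 8-letter form were Ctsa at 0 and Atp6v0d1 at -0.04. In Fnip1 the 6-letter form lay 75 bases before the start.

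Over the members past the filter, the median palmitate minus oleate difference was 0 for the 14 with CACGTG and 0 for the 17 with a window that lacked it. Of those with the motif, 2 were at least 1.5-fold higher and 0 lower, and of those without it 2 were higher and 1 lower. Across all genes past the filter with a window, 6.37% of those with CACGTG were higher and 3.24% lower, while 4.22% of those without it were higher and 4.95% lower. Gabarapl1, Mitf, Flcn and Tfeb had no CACGTG in their windows, which says only that these letters are absent there.

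**Figure D2:**
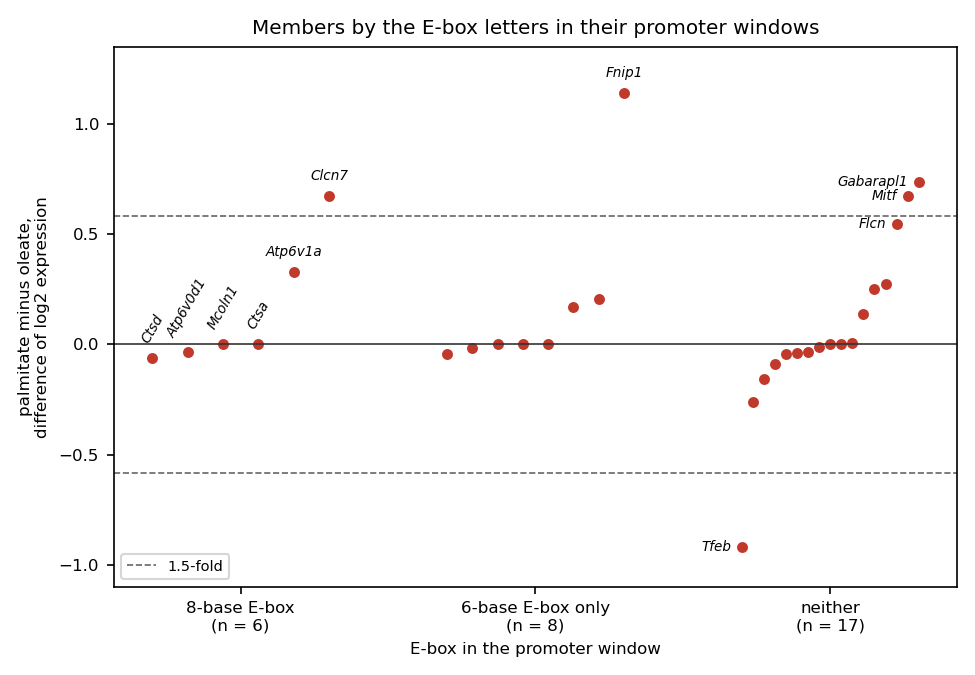
Palmitate minus oleate difference of log2 expression (vertical axis) for the members past the filter with a promoter window, grouped by the E-box letters in it; dashed lines mark 1.5-fold. Members with the 8-letter motif run from Ctsd at -0.06 to Clcn7 at 0.68, and each group holds a member past the upper line.

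The transcription factors went in different directions. Tfeb had 5.74 on the palmitate array, against 6.66 on the elaidate and 6.66 on the oleate array, where the elaidate and oleate values were equal. Palmitate minus oleate was -0.92, a 1.89-fold lower level, and 1.60% of all genes past the filter had a lower difference. Mitf stood at 5.57 on the palmitate, 4.87 on the elaidate and 4.89 on the oleate array, with palmitate above both. Palmitate minus oleate was 0.67 and palmitate minus elaidate 0.70. The Mitf value is the mean of 2 probe sets. One stood at 0.65, with levels of 8.30 on the palmitate and 7.65 on the oleate array. The other stood at 0.70, with 2.83 on the palmitate and 2.13 on the oleate array, levels below the filter limit of 4.14. Tfe3 had 8.33 on the palmitate, 8.37 on the elaidate and 8.59 on the oleate array, so oleate was apart from the other arrays and palmitate minus oleate was -0.26.

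The folliculin complex gave the largest difference of the members. Fnip1, the folliculin-interacting protein that lets folliculin act on the Rag GTPases, had 9.14 on the palmitate, 8.19 on the elaidate and 8.00 on the oleate array. Palmitate minus oleate was 1.14, or 2.21-fold, and 98.7% of all genes past the filter had a lower difference. It was the 1 member past 2-fold. Palmitate minus elaidate was 0.95 for Fnip1, or 1.93-fold.

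Flcn, folliculin itself, had 7.64 on the palmitate, 7.05 on the elaidate and 7.09 on the oleate array. Palmitate was highest, with differences of 0.55 against oleate and 0.58 against elaidate, just short of 1.5-fold. The class of Flcn also holds the transcription factors and Rag genes, and 6 of its genes passed the filter. Of these 6, 2 were at least 1.5-fold higher with palmitate than with oleate, 33.3% beside 4.57% of all genes. At the same limit 1 was lower, 16.7% beside 4.73%. By any amount 4 were higher, 66.7% beside 30.9% of all genes, and 2 lower, 33.3% beside 36.8%, with a median of 0.38. That median was 0.21 without Fnip1 and 0.23 as a mean. It was 0 over the 20 other genes of this class past the filter.

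Rragc, which encodes a GTPase substrate of folliculin, was measured by 2 probe sets that disagreed. One had 9.18 on the palmitate, 8.90 on the elaidate and 8.77 on the oleate array, a palmitate minus oleate difference of 0.41, and the other had 4.60 on all arrays. Their mean, used in the counts, differed by 0.21. The partner gene Rragd was below the filter at 2.54 on each array.

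**Figure D3:**
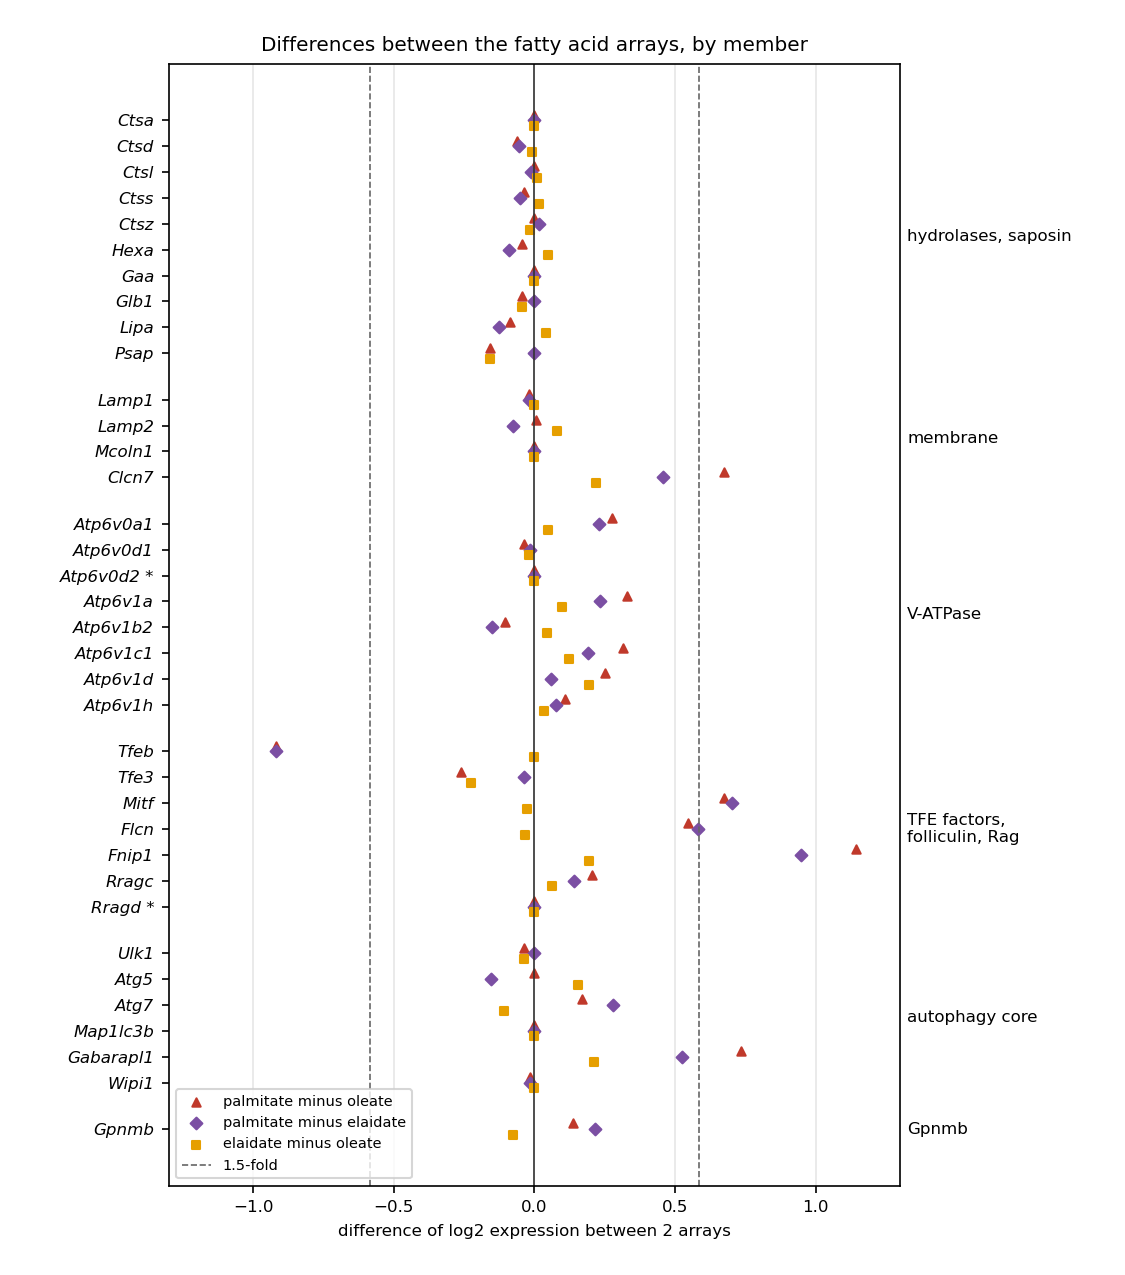
Differences of log2 expression of each measured member for palmitate minus oleate (triangles), palmitate minus elaidate (diamonds) and elaidate minus oleate (squares), with 1.5-fold as dashed lines and members below the filter starred. All squares lie inside the lines, and Fnip1 at 1.14 and Tfeb at -0.92 are the triangles furthest from 0.

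Of the autophagy genes, Gabarapl1 differed and the others stayed nearer 0. Gabarapl1, a relative of LC3 that is joined to the growing autophagosome membrane, had 8.66 on the palmitate, 8.13 on the elaidate and 7.92 on the oleate array. The palmitate value was highest and the oleate value lowest, with palmitate minus oleate at 0.74, or 1.67-fold. Map1lc3b, which encodes LC3B, was equal on all 3 arrays in both of its probe sets, at 8.90 and 8.70. Atg7, the enzyme that activates LC3-type proteins for that joining, had 8.24 on the palmitate, 7.96 on the elaidate and 8.07 on the oleate array. Its palmitate minus elaidate difference was 0.28, with elaidate the lowest array.

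Atg5, part of the complex that completes the joining, had 6.59 on the palmitate, 6.75 on the elaidate and 6.59 on the oleate array, with elaidate alone higher. The initiating kinase gene Ulk1 differed by -0.04 and Wipi1, which binds phosphoinositides on the forming membrane, by -0.01 for palmitate minus oleate. Over the 6 measured autophagy genes the median of that difference was 0. At 1.5-fold 1 was higher, 16.7% beside 4.57% of all genes, and 0 were lower, beside 4.73%. By any amount 2 were higher and 2 lower, 33.3% each beside 30.9% and 36.8% of all genes. Gpnmb, a membrane glycoprotein induced in lipid-laden and lysosome-stressed macrophages, had 9.75 on the palmitate, 9.53 on the elaidate and 9.61 on the oleate array. Palmitate was highest, with a difference of 0.14 from oleate.

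The trans and cis isomers were within 1.5-fold of each other for every member, and with 1 array each no interval can be put on the differences. The members furthest from 0 for elaidate minus oleate were Tfe3 at -0.22, Clcn7 at 0.22 and Gabarapl1 at 0.21, followed by Fnip1 and Atp6v1d at 0.19 each. Of the 34 members, 16 were higher by any amount on the elaidate array, 11 lower and 7 equal, 47.1% higher beside 31.5% of all genes higher by any amount. The 5 listed V1 subunit genes were higher with elaidate than with oleate, by 0.03 to 0.19, while of the other V1 genes past the filter Atp6v1g1 stood at 0.27 and Atp6v1e1, Atp6v1f and Atp6v1g2 at 0.

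For the 5 members past 1.5-fold between palmitate and oleate, the elaidate level was placed on the way from the oleate to the palmitate level, which is a description that uses each array in both distances. Elaidate lay 32.5% of that way for Clcn7, 28.9% for Gabarapl1 and 17.0% for Fnip1. It lay at 0% for Tfeb and at -4.00% for Mitf, that is, on the far side of oleate. The elaidate levels of these 5 genes were nearer to oleate than to palmitate. The 5 genes were picked by their palmitate minus oleate difference. Over all genes past the filter, elaidate minus oleate had a standard deviation of 0.13, beside 0.38 for palmitate minus oleate. The positions were not set beside those of other genes, so they are not read as a trait of these members.

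Other genes of the same pathways, 157 in a list that was chosen with earlier results of these arrays known, were set beside the members, and 132 of them passed the filter. With palmitate relative to oleate, 8 of the 132 were at least 1.5-fold higher, 6.06% beside the background of 4.57%, and 7 lower, 5.30% beside 4.73%. Fnip2, the other folliculin-interacting gene, stood at 1.11, with 9.50 on the palmitate, 8.57 on the elaidate and 8.38 on the oleate array. Its pattern was that of Fnip1, with palmitate apart and elaidate close to oleate. Rheb, the GTPase that activates mTORC1, stood at 0.74, while Lamtor4, part of the scaffold that anchors Rag GTPases to the lysosome, stood at -0.97. These genes belong to the 20 of the TFE, folliculin and Rag class in this list past the filter. Of the 20, 2 were at least 1.5-fold higher with palmitate than with oleate, 10% beside 4.57% of all genes. At that limit 1 was lower, 5% beside 4.73%. By any amount 9 were higher and 9 lower, 45% each beside 30.9% and 36.8% of all genes, with a median of 0.

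Of 34 autophagy genes of this list past the filter, receptors apart, 2 were at least 1.5-fold higher with palmitate than with oleate. That is 5.88%, near the 4.57% of all genes. At that limit 1 was lower, 2.94% beside 4.73%. Of 14 autophagy receptor genes 2 were higher, 14.3%, and 0 lower, beside the same shares of all genes. Sqstm1, which encodes the receptor p62, had 11.84 on the palmitate, 10.51 on the elaidate and 10.29 on the oleate array, the largest difference of the list at 1.55. Nbr1, a related receptor, stood at 0.69 for palmitate minus oleate. Atg13, of the initiating kinase complex, and Atg12, a ubiquitin-like protein joined to ATG5, stood at 0.78 each. Vamp8, which helps autophagosomes fuse with lysosomes, stood at -0.60. Median differences were 0 over 34 autophagy genes and 0.01 over 14 receptors.

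Of the other hydrolases past the filter, 1 was at least 1.5-fold higher with palmitate than with oleate, 3.45% beside 4.57% of all genes. At the same limit 3 were lower, 10.3% beside 4.73%. Of 29 past the filter, 19 were lower by any amount than on the oleate array, 3 higher and 7 equal, 65.5% lower beside 36.8% of all genes, with a median of -0.16. The protease gene Ctsh stood at -0.76, the iduronate sulfatase gene Ids at -0.69 and the arylsulfatase gene Arsb at -0.59, while Gla, the galactosidase lost in Fabry disease, stood at 0.82.

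Of 24 membrane genes of this list, 1 was at least 1.5-fold higher with palmitate than with oleate, 4.17% beside 4.57% of all genes. At the same limit 2 were lower, 8.33% beside 4.73%. By any amount 7 were higher and 7 lower, 29.2% each, near the 30.9% and 36.8% of all genes. Mcoln2, a channel related to Mcoln1, had 9.20 on the palmitate, 8.11 on the elaidate and 8.08 on the oleate array, a difference of 1.13 from oleate. Scarb2, the membrane protein that carries glucocerebrosidase to lysosomes, stood at -0.65 and the two-pore channel gene Tpcn1 at -0.87. Between palmitate and oleate, 0 of the 11 other V-ATPase genes were 1.5-fold different, beside 4.57% of all genes higher and 4.73% lower. By any amount 4 were higher, 36.4% beside 30.9% of all genes, and 5 lower, 45.5% beside 36.8%, with a median of 0. Tcirg1, the V0 subunit of osteoclast and macrophage pumps, had 9.95 on the palmitate, 9.32 on the elaidate and 9.65 on the oleate array, so elaidate was lowest.

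**Figure D4:**
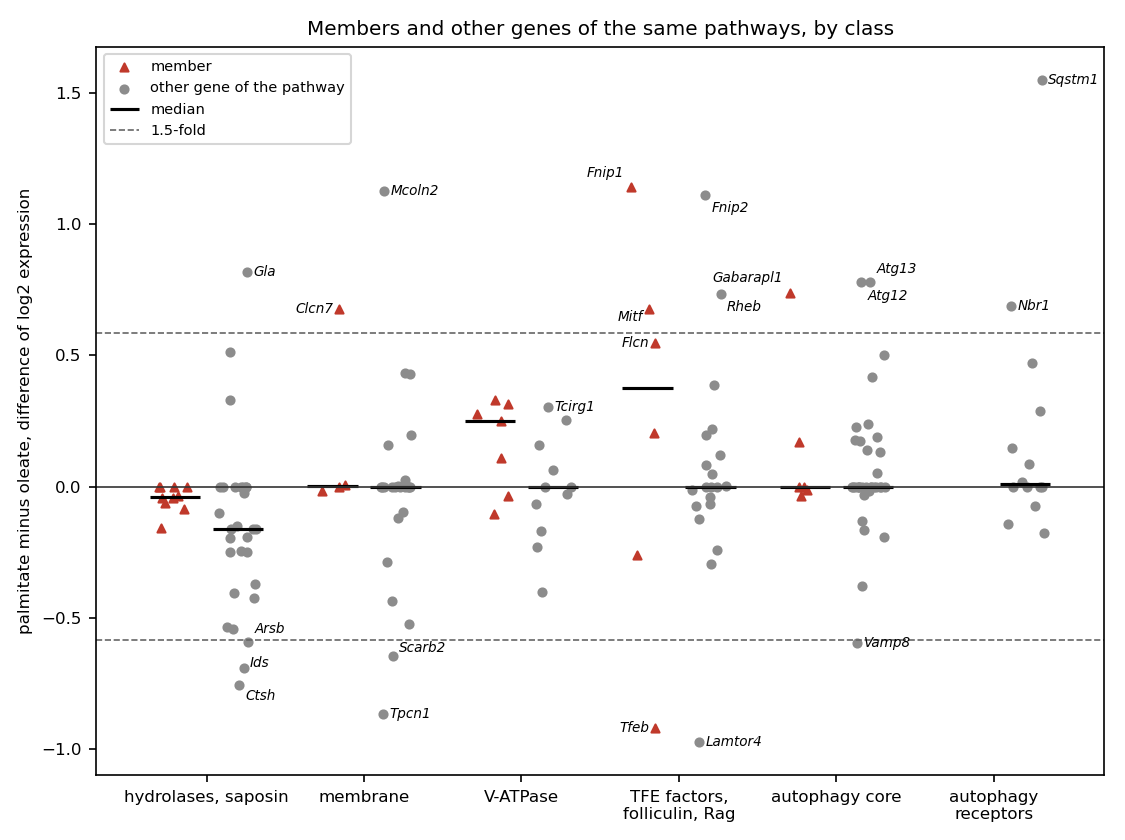
Palmitate minus oleate difference of log2 expression (vertical axis) by class for members (triangles) and other genes of the same pathways (circles) past the filter, with medians as bars and 1.5-fold as dashed lines. Member hydrolases lie between -0.16 and 0, while Fnip1 at 1.14, Fnip2 at 1.11, Mcoln2 at 1.13 and Sqstm1 at 1.55 are the highest points.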

How the data were processed

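RNA of RAW264.7 cells was labelled for Affymetrix whole-transcript arrays, per the labels' protocols. The deposited table holds log2 expression levels, which come from RMA per the submitters' processing notes; no sources used here give its version or the genome build. Its median polish step can give a probe set the same value on several arrays.

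Groups were taken from the fatty acid in the labels. Of 35556 probe sets, 21218 had 1 gene symbol in the supplied platform annotation, 1881 had several and 12457 were not named there. Genes were named from the first kind, and several probe sets of a gene were averaged. Genes with a mean log2 value of at least 4.14, that of the median gene, were kept. Differences between arrays were counted at 1.5-fold, and values within 1e-06 were called equal. Arrays have no depth, and 1 array per group allows no test. The counting code was checked on simulated data with known differences away from the 1.5-fold limit, which says nothing on the spread between cultures. RefSeq promoter windows (GRCm38.p6) were matched by gene identifier. Members and lists were chosen with earlier results of these data known. Every member past 1.5-fold and the 2 of each class furthest from 0 are given on every array; other pathway genes past 1.5-fold could be named.

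Tried instead were means, no filter, filtering on the highest value, the brightest probe set, centring on medians, cyclic loess between arrays (span 0.7, 3 iterations; R 4.3.3 with limma 3.58.1), limits of 2-fold and of 0.32 in log2 difference, and classes without the member furthest from 0. Other steps ran in Python 3.11.15 with pandas 2.3.3, numpy 2.4.6 and matplotlib 3.10.9.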

Additional observations from a re-analysis of the deposited data

How the results depend on the processing

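Results were recomputed under each alternative, and a class median was called moved when it shifted by over 0.1. Centring, cyclic loess and the filter on the highest value moved none of the 21 counts and medians. Centring shifts all differences of a pair of arrays by 1 amount, at most 0.04 in size. It could therefore not move a median by over 0.1. No result changed sign past 1.5-fold under the alternatives tried. Only single genes could have done so, since no class median reached 1.5-fold and counts have no sign. For those genes the shift by centring was too small to do so. With a limit of 2-fold, members higher numbered 1 between palmitate and oleate and 0 between palmitate and elaidate, and members lower numbered 0 in both; with a limit of 0.32 in log2 difference, 5 members were higher for palmitate minus elaidate. The median of the TFE, folliculin and Rag genes was 0.38 for palmitate minus oleate. It became 0.21 without the filter, where Rragd at 0 enters, 0.48 with the probe set of the highest mean, 0.23 as a mean and 0.21 without Fnip1. For palmitate minus elaidate it was 0.36, against 0.14 without the filter, 0.24 as a mean and 0.14 without the member furthest from 0. As means, palmitate minus oleate was 0.17 for membrane proteins and 0.14 for autophagy genes, and palmitate minus elaidate was 0.11 for autophagy genes. Single-gene differences were recomputed with centring, cyclic loess and the brightest probe set, and 304 of 306 stayed within 0.1. That count was largely fixed beforehand, since centring could not pass 0.1. The brightest probe set could change only Map1lc3b, Rragc and Mitf, the members with several probe sets. Rragc became 0.41 against oleate and 0.28 against elaidate on the palmitate array with its brighter probe set. The number of arrays limits every value, since the spread between cultures of 1 fatty acid was not measured and no array could be left out.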
